A study of Mus musculus with 24 samples.

Results

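The 10 genes described here encode subunits of the ionotropic glutamate receptors: Grin1, Grin2a, Grin2b, Grin2c and Grin2d (NMDA receptors), Gria1, Gria2 and Gria4 (AMPA receptors), and Grik2 and Grik4 (kainate receptors). Each gene was taken from 5 kb upstream of its transcription start to its end in the RefSeq annotation of mm10, and every 100 bp tile that touched this stretch was included. The 10 genes, of 24963 curated genes on the autosomes, held 1167 tiles, of which 991 were measured in liver, 1087 in brain, 1068 in heart and 906 in all 3 tissues. DNA methylation was measured by enhanced reduced representation bisulphite sequencing (RRBS), which cuts DNA with restriction enzymes, converts unmethylated cytosines and reads the CpGs near the cut sites. The mice were C57Bl/6J at 24 weeks of age, with no treatment or allele named in the labels. Liver gave 12 libraries (6 males and 6 females), and brain and heart gave 6 each (3 males and 3 females) from mice that also gave liver. DNA came from rostral coronal slices of brain, the apex of the heart and the caudal tip of the left liver lobe. A column of the tables showed its tissue but neither mouse nor gender, so both genders were pooled in every value below and libraries of the same mouse could not be paired.

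Ionotropic glutamate receptors are tetrameric channels that open when glutamate binds, and they carry most of the fast excitatory transmission of the brain. AMPA receptors carry the fast current, NMDA receptors need both glutamate and a co-agonist and admit calcium, and kainate receptors act on both sides of the synapse. Methylation of CpG-dense DNA at a transcription start is generally associated with silencing, whereas the bodies of genes are usually methylated in most tissues. The tissue levels are averages over all cells of a slice, so a smaller share of methylated cells and a lower level per cell cannot be told apart.

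The sequences on which the comparisons turn are printed from the RefSeq mm10 genome on the strand of the gene, 5′ to 3′. Each CG dinucleotide is in capitals because methylation was measured at CpGs. Levels were given per tile, so which CpGs of a tile were read is not known. The first 6 are the tiles with the largest difference between brain and the nearer other tissue in the 6 genes where this difference was largest, and they were chosen for it. Grin1 intron 3 is shown for a difference of smaller size at a CpG-dense site and was chosen after its values were seen. The Grik4 and Grin2a promoter tiles are shown for the contrast between CpG-dense DNA next to a start and the CpG-poor DNA further ahead of one, at position -937 bp.
Gria1 intron 2, chr11:57070701-57070800, plus strand: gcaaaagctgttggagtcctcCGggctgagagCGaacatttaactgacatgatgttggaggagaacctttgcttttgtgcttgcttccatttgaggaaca
Grin2b intron 3, chr6:136165801-136165900, minus strand: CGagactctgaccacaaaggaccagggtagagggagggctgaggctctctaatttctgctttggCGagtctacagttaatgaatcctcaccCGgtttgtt
Gria2 promoter, chr3:80803401-80803500, minus strand: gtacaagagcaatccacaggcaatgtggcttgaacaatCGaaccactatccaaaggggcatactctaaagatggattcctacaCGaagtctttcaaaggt
Grin2a intron 4, chr16:9753201-9753300, minus strand: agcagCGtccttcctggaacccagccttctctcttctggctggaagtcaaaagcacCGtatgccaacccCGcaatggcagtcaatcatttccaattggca
Gria4 intron 4, chr9:4582301-4582400, minus strand: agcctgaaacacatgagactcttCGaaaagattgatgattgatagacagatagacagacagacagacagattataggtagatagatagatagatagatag
Grik4 intron 1, chr9:42939901-42940000, minus strand: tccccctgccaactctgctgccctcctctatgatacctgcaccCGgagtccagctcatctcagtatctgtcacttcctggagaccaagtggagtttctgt
Grin1 intron 3, chr2:25311501-25311600, minus strand: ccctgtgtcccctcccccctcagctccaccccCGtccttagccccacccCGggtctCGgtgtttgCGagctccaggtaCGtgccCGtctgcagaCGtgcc
Grik4 promoter, chr9:42944501-42944600, minus strand: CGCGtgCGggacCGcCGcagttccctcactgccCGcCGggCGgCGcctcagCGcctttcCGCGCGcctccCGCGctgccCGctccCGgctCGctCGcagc
Grin2a promoter, chr16:9996701-9996800, minus strand: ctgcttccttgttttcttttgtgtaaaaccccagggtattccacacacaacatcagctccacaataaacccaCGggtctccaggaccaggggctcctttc
The Grik4 promoter tile held 19 CpGs in 100 bases, against 1 in the Grik4 intron 1 tile and 1 in the Gria4 intron 4 tile. In the Gria4 intron 4 tile, 64 of the bases were soft-masked as repeat.

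Over the tiles shared by the tissues, all 758685 tiles averaged 65.3% for liver, 65.2% for brain and 59.8% for heart, so heart lay below the others genome-wide. The median tile differed by -0.28 points between brain and liver, by 3.0 points between brain and heart and by -3.5 points between heart and liver, and the values of the receptor genes are to be read against these shifts. Library correlations within a tissue were 0.962 to 0.975 in liver, 0.934 to 0.968 in brain and 0.955 to 0.970 in heart, and no columns were identical. Genes that define each tissue were checked by their methylation. Over whole genes, all 6 measured hepatocyte genes were lowest in liver and 6 of 7 cardiomyocyte genes were lowest in heart (Nppa was lowest in brain). By the same measure, 2 of 5 neuronal and 2 of 5 glial genes were lowest in brain, and all 3 endothelial genes were lowest in heart. Over promoters, 3 of 3 measured hepatocyte genes were lowest in liver, and 4 of 4 neuronal and 4 of 4 glial genes were lowest in brain. Some of these lay close to heart, with Snap25 at 1.51% in brain against 2.11%, Syt1 at 0.897% against 1.6%, Map2 at 25.04% against 25.99% and Olig2 at 1.08% against 1.7%. The gap to the nearer tissue was wider in Camk2a (9.1% against 23.05% in liver). It was also wider against heart in Mog (75.3% against 86%), Mag (64.3% against 75.5%) and Aqp4 (33.3% against 36.7%). The neuronal and glial counts thus rest in part on small differences. Only 1 of 3 measured cardiomyocyte promoters was lowest in heart, Myh7 being lowest in brain and Ryr2 in liver. Read depth per tile was not given beyond the minimum of more than 10 reads per library that the study's methods state, so no interval for single levels could be computed.

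Most tiles just after the transcription start were nearly unmethylated in all tissues. The 50 shared tiles within 1000 bp downstream of a start averaged 3.66% in liver, 1.45% in brain and 1.80% in heart. All 50 were under 10% in brain, 49 in heart and 47 in liver. The exceptions were a Gria1 tile at 433 bp, with 23.3% in liver and 13.4% in heart, and a pair of Grin2c tiles, with 13.8% and 11.2% in liver. The 707 tiles more than 10 kb past the start averaged 73.3%, 72.5% and 63.3%. Between 1 and 10 kb past the start, the 99 tiles averaged 32.3% in liver, 31.3% in brain and 26.7% in heart. None of the 50 tiles next to the start was called different between any pair of tissues, where a call needed 25 percentage points or more together with an adjusted p no larger than 0.01 (limma, adjusted over all tiles). The highest tissue mean among these tiles was 23.3%, so no call was possible there and its absence says nothing about the tissues. In the plot of tile levels around the starts, the low stretch was visible in all 10 genes and ended within a few kilobases.

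**Figure D1:**
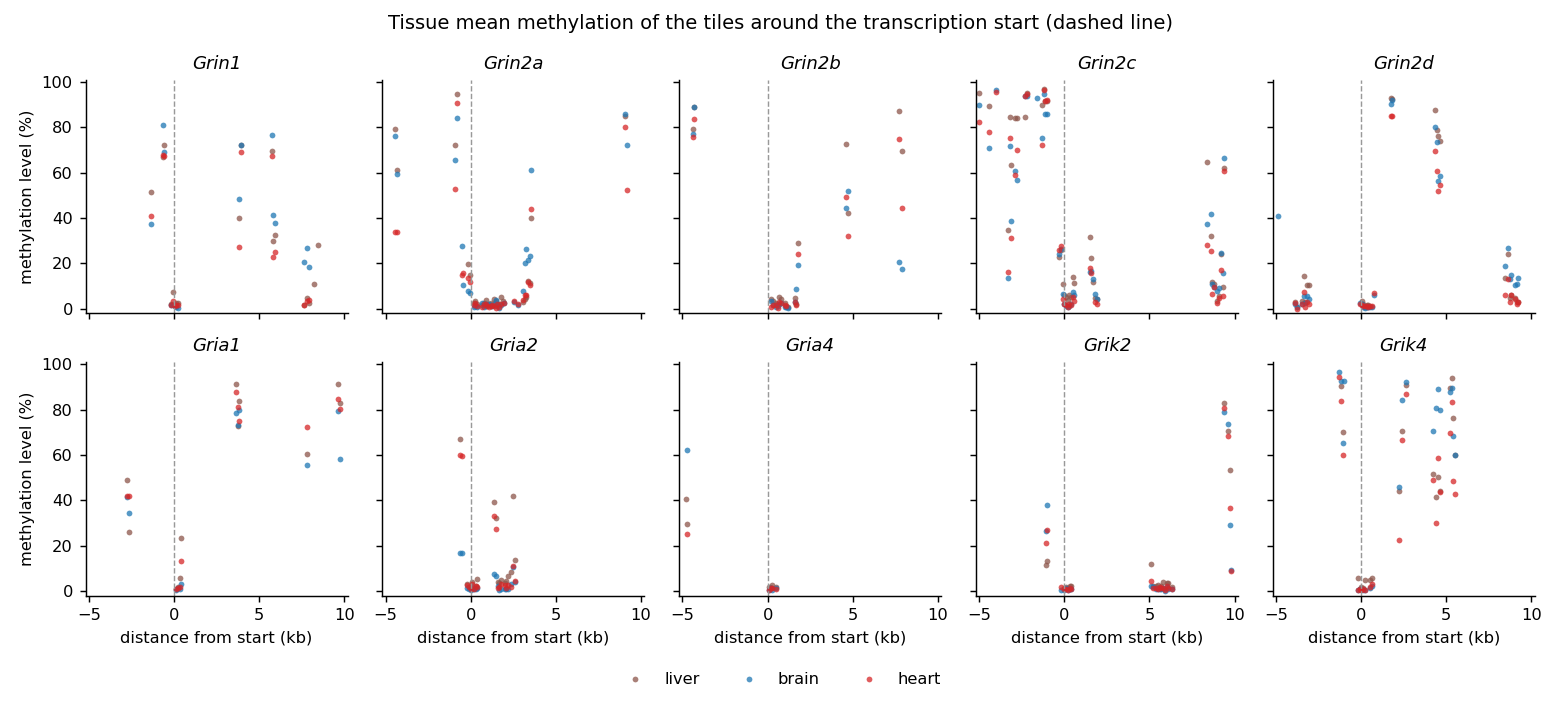
Mean methylation level (%) of each 100 bp tile in liver, brain and heart against its distance from the transcription start (kb, dashed line at 0), 1 panel per gene, each point 1 tile in 1 tissue. Most tiles at the start sat near 0% in all 3 tissues, and tiles at Gria2 just before and just after the low stretch were lower in brain than in liver and heart.

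Across whole genes, the levels differed more between receptor genes than between tissues. A whole-gene level is a mean over the tiles that were covered, and their mix differed between genes. Gria2 had 6 promoter and 0 coding tiles of 26, Grin2d 29 coding tiles of 51 and Grin2b 150 intronic tiles of 184. The part of this mix in the order of the genes was not tested. On shared tiles, liver levels were lowest in Gria2 (31.0%), Grin1 (34.1%) and Grin2d (34.97%), and highest in Gria1 (70.4%), Grik4 (73.0%) and Grin2b (73.3%). Grin2c stood at 45.4%, Grik2 at 57.9%, Gria4 at 62.1% and Grin2a at 63.3%. Heart was below liver with no overlap between libraries in 10 of 10 genes. Brain was above heart with no overlap in 7 of 10 genes, Grin2c, Gria1 and Gria2 being the exceptions. These directions against heart depended on the genome-wide shift, since after quantile normalisation, which gives every library the same distribution, whole-gene heart minus liver differences changed sign in Grin1 (to 1.56 points), Gria4 (3.37), Grik2 (2.12) and Gria1 (1.70), and brain minus heart differences in Grin2b (to -1.42), Gria1 (-6.18) and Grin2c (-1.70). Brain and liver did not overlap in 5 of 10 genes, with brain higher in Gria4 and Grik2 and lower in Grin2c, Gria2 and Grik4. The share of all genes without overlap was not computed, so these counts cannot be set against the background. For heart against liver, 10 of 10 genes passed the adjusted p of a call, whatever the size, beside 77.3% of all genes (limma). For brain against heart 8 of 10 did, beside 61.2%, and for brain against liver 9 of 10, beside 61.9%. The spread among libraries was larger in brain than in heart for all 10 genes and larger than in liver for 9 of 10, with SDs of 1.04 to 3.53 points in brain, 0.430 to 1.36 in liver and 0.295 to 0.988 in heart. Library means over all tiles of each tissue had the same order, with SDs of 0.934, 0.339 and 0.259 points. The larger spread in brain was therefore not particular to these genes. The part of gender or slice position in this spread was not tested, since the columns carry no gender. Brain library 1 lay nearer to the other tissues than any other brain library in the extreme tiles of 6 of 10 genes, and every extreme tile that was called remained so without it.

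**Figure D2:**
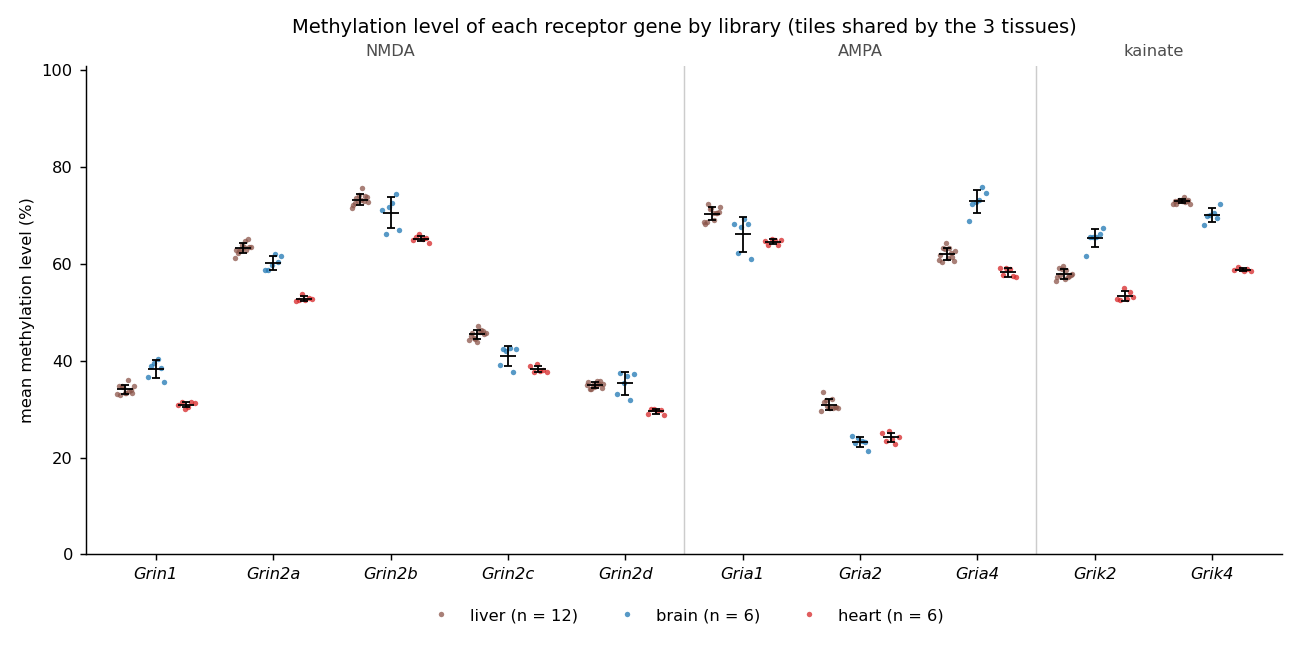
Mean methylation level (%) over the shared tiles of each gene from 5 kb upstream to its end, with 1 point per library (12 liver, 6 brain, 6 heart) and the mean and SD in black. Heart lay below liver in every gene, and the brain mean was above the liver mean in Gria4, Grik2, Grin1 and Grin2d.

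Between brain and liver, 44 of the 906 shared tiles of the receptor genes were higher in brain and 59 lower, or 4.86% and 6.51%. Of all 758685 tiles, 4.76% were higher and 5.04% lower, so the share of higher tiles was close to the background. Between brain and heart, 110 tiles were higher in brain and 16 lower, 12.1% and 1.77%, against 7.71% and 1.75% of all tiles. Between heart and liver, 10 tiles were higher in heart and 93 lower, 1.10% and 10.3%, against 2.87% and 7.94% of all tiles. These comparisons share libraries and are not independent of each other. After quantile normalisation, added because heart lay lower genome-wide, brain against heart became 42 higher and 32 lower (3.12% and 3.83% of all tiles) and heart against liver 11 and 41 (4.0% and 3.87%), whereas brain against liver gave 44 and 66 (4.56% and 5.52%). The counts against heart therefore depended on how the genome-wide shift was treated.

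The direction differed between genes. Called tiles were higher in brain than liver and never lower in Gria4 (8 of 43) and Grik2 (11 of 87), lower and never higher in Gria2 (4 of 26) and Grin2c (2 of 49), and of both signs in Grin2a (2 higher, 9 lower), Grin2b (5 and 15), Gria1 (2 and 6) and Grik4 (16 and 23). No tile of Grin1 or Grin2d was called in any comparison. Against heart, Gria4 had 14 higher and 0 lower, Grik2 15 and 0, Grik4 46 and 2, Grin2b 18 and 7, Grin2a 13 and 3, Gria1 4 and 2, and Gria2 0 and 2. Single-CpG tiles made up 26.4% of the 906 tested, 54.5% of the 44 higher in brain than liver and 11.9% of the 59 lower, where they were 25.3% of all tiles tested, 32.9% of all tiles called higher and 24.95% of those called lower. Against heart they made up 47.3% of the 110 higher and 0% of the 16 lower, beside 40.1% and 22.3% of all called tiles. Restricted to tiles of at least 2 CpGs, brain against liver counted 20 higher and 52 lower of 667, or 3.00% and 7.80%, against 4.28% and 5.06% of all such tiles. Most calls lay in introns, with 42 of the 44 higher and 51 of the 59 lower tiles against liver, where introns made up 689 of the 906 tiles.

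**Figure D3:**
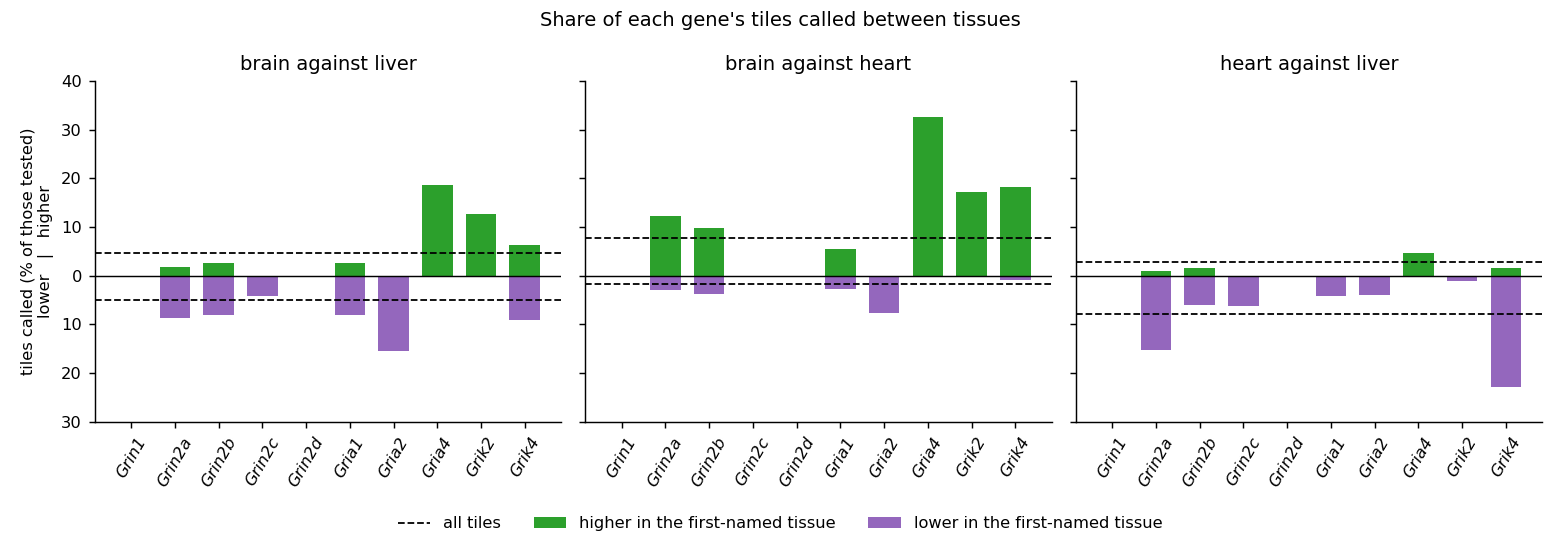
Share of each gene's shared tiles (%) called higher (green, upwards) or lower (purple, downwards) in the first-named tissue, with dashed lines at the share over all tiles. Gria4 and Grik2 had only higher tiles in brain and Gria2 only lower ones in both comparisons with brain.

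Grin1 encodes the obligatory glycine-binding subunit of NMDA receptors. Its promoter tile nearest the start averaged 1.63% in liver, 1.05% in brain and 1.07% in heart, and the tile just before it 7.17%, 1.58% and 3.40%. From 7637 to 7937 bp past the start, 3 tiles around exon 4, with 7 CpGs each, were nearly unmethylated in liver and heart and partly methylated in brain. In the exon 4 tile, liver libraries ran from 2.9 to 7.7% (median 4.60%), heart libraries from 1.3 to 6.7% (median 2.90%) and brain libraries from 15.4 to 30.8% (median 27.9%). Brain did not overlap with either tissue. The differences of 21.9 ± 1.5 (SE) points from liver (adjusted p = 1.79e-12) and 23.4 ± 1.7 from heart (adjusted p = 4.24e-11) were below the 25 points required for a call. In the intron 3 tile printed above, liver ran from 0.5 to 4.3%, heart from 0.8 to 2.2% and brain from 16.3 to 25.3%, a difference of 19.0 ± 1.0 points from liver (adjusted p = 2.60e-14). Without brain library 1 the exon 4 tile passed the call against heart, at 25.7 points. Over introns, Grin1 was called higher in brain than heart by 10.4 ± 1.3 points (adjusted p = 1.05e-07), at 55.7% ± 3.4 against 45.3% ± 1.1 (SD, n = 6 each), where 16.8% of all genes were called higher. After quantile normalisation this difference was 2.47 points. The antisense gene Grin1os overlaps the far end of Grin1, and none of these 3 tiles lies in it.

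Grin2a and Grin2b encode glutamate-binding NMDA subunits of long genes, Grin2b being prominent early in development and Grin2a later. Both held intronic tiles with low methylation in brain, and both carried more tiles lower than higher in brain than liver. In Grin2b intron 3, the tile 7695 bp past the start averaged 87.1% in liver, with libraries from 77.9 to 100%, 74.8% in heart, from 69.4 to 83.8%, and 20.6% in brain, from 16.5 to 26.1%. The brain range lay below both others, which overlapped each other, and the differences were -66.5 ± 2.9 points from liver (adjusted p = 6.78e-16) and -54.2 ± 3.4 from heart (adjusted p = 4.34e-12). The tile at 7895 bp, chosen after its values were seen, gave 69.7% in liver, 17.6% in brain and 44.4% in heart. A pair of adjoining tiles in intron 4 (chr6:135961801-135962000) averaged 72.6% in liver, 28.9% in brain and 59.7% in heart. In the same intron, a run of 3 adjoining tiles (chr6:136013801-136014100) averaged 40.3% in liver, 81.4% in brain and 68.1% in heart. It was called higher than liver in both brain and heart, so the low level was that of liver. Grin2b had 5 calls upwards and 15 downwards against liver, and its whole-gene mean differed by -2.75 ± 0.86 points (70.6% ± 3.2 in brain, n = 6, against 73.3% ± 1.1 in liver, n = 12). The 15 coding tiles were methylated throughout, at 91.5% in liver, 93.1% in brain and 89.6% in heart, and no tile of Grin2b lay in the 1000 bp before its start.

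In Grin2a intron 4, a run of 3 adjoining tiles (chr16:9753101-9753400) averaged 84.4% in liver, 43.0% in brain and 79.2% in heart. In the middle tile of the run, the one printed above, liver ran from 86.7 to 95.1% (median 90.4%), heart from 79.4 to 90.0% (median 83.9%) and brain from 30.9 to 61.5% (median 47.9%), so that brain lay below both others, which overlapped each other. It differed by -44.5 ± 3.4 points from liver (adjusted p = 3.24e-11) and by -37.9 ± 3.9 from heart (adjusted p = 2.27e-08). Elsewhere in the same intron, a pair of tiles (chr16:9714501-9714700) was high in liver (83.8%) and brain (87.8%) and low in heart (39.9%). At the promoter, the 4 shared tiles averaged 50.4% ± 2.4 in liver, 41.1% ± 3.4 in brain and 42.2% ± 2.1 in heart. The brain to liver difference of -9.29 ± 1.32 points (adjusted p = 1.49e-06) stayed under the 10 points required for a call on a gene region. Within the promoter, the liver level was 14.8% at position -37 bp, 19.8% at -137 bp, 94.6% at -837 bp and 72.4% at -937 bp. Coding tiles were called higher in brain than heart by 10.5 ± 1.1 points (adjusted p = 1.81e-08), at 62.0% ± 2.1 against 51.5% ± 1.6, beside 11% of all genes called higher. Whole gene and introns were called lower in heart than liver, with differences of -10.4 ± 0.5 and -11.9 ± 0.7 points, where 13.6% and 18.6% of genes were called lower. After quantile normalisation these differences were 4.54, -4.33 and -4.95 points, and none remained a call.

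Grin2c and Grin2d encode NMDA subunits with more restricted expression, Grin2c being known from the cerebellum. Grin2c was called lower in brain than liver over the 12 tiles 1 to 5 kb ahead of its start, by -12.3 ± 1.4 points (adjusted p = 3.37e-08), at 70.5% ± 4.5 in brain against 82.8% ± 2.1 in liver. In heart the same tiles averaged 71.7% ± 2.2, a difference of -11.1 ± 1.4 points from liver (adjusted p = 1.49e-07). The heart call was lost after quantile normalisation (-5.11 points) and with CpG weights (-9.87), whereas the brain call remained (-12.5 and -10.8). Of all genes, 11.5% were called lower in this region in brain and 24.6% in heart, and all of these tiles lie in the neighbouring gene Fdxr. The Grin2c promoter gave 31.4%, 28.9% and 30.3% in liver, brain and heart, and the tile at its start 5.88%, 1.93% and 1.95%. Grin2d had low coding levels, with 29 tiles at 21.0% ± 0.9 in liver, 23.3% ± 3.2 in brain and 16.5% ± 0.8 in heart, whereas its introns stood at 80.4%, 78.8% and 72.1%. Its largest gap to both tissues lay in exon 5, with 2.98% in liver, 13.6% in brain and 3.03% in heart (differences of 10.6 ± 1.3 and 10.6 ± 1.5 points), below the size of a call.

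Gria1 encodes the AMPA subunit best known for its traffic during synaptic potentiation. The tile in intron 2 at chr11:57070701-57070800, 59133 bp past the start, had the largest difference of brain from the nearer other tissue among the extreme tiles of the 10 genes. Liver libraries ran from 82.3 to 94.5% (median 91.5%), heart libraries from 89.2 to 94.7% (median 92.2%) and brain libraries from 18.8 to 43.5% (median 27.8%). Brain lay apart from both tissues, by -61.7 ± 2.9 points from liver (adjusted p = 2.70e-15) and -62.4 ± 3.4 from heart (adjusted p = 3.83e-13), and liver and heart differed by 0.75 ± 2.94 points (adjusted p = 0.858). The adjoining tile, which holds 4 CpGs, averaged 93.0% in liver, 44.2% in brain and 87.2% in heart. A tile in intron 4, chosen after its values were seen, went the other way, at 46.1% in liver, 75.2% in brain and 34.98% in heart. The only promoter tile, ahead of a second start of the gene, had 4 CpGs and 18.7 to 33.1% in liver (median 21.6%), 8.5 to 16.8% in heart (median 13.7%) and 1.2 to 6.1% in brain (median 2.95%). No ranges overlapped there, and the differences of brain were -20.1 ± 1.7 points from liver (adjusted p = 2.31e-10) and -10.1 ± 2.0 from heart (adjusted p = 1.67e-04), short of the call on a tile. Gria1 was not called over the whole gene, with 66.1% ± 3.5 in brain, 70.4% ± 1.4 in liver and 64.6% ± 0.5 in heart.

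Gria2 encodes the subunit whose RNA-edited form makes AMPA receptors impermeable to calcium. Its start was unmethylated in all tissues, at 1.17% in liver, 0.633% in brain and 0.933% in heart. On both sides of this low stretch Gria2 was lower in brain. At position -615 bp, the promoter tile printed above ran from 56.2 to 83.3% in liver (median 64.7%), from 50.9 to 67.9% in heart (median 58.3%) and from 10.7 to 27.6% in brain (median 14.4%). Brain did not overlap with either, and the differences were -50.1 ± 3.8 points from liver (adjusted p = 1.92e-11) and -43.1 ± 4.3 from heart (adjusted p = 1.26e-08). It was the only promoter tile of the 31 shared ones to be called. The tile beside it was measured in brain and heart alone, at 16.8% and 59.8%. In intron 2, a pair of adjoining tiles (chr3:80801301-80801500) averaged 35.8% in liver, 7.12% in brain and 30.2% in heart. Over the whole promoter the 6 shared tiles averaged 13.1% ± 1.6 in liver, 3.71% ± 1.33 in brain and 11.5% ± 1.3 in heart, differences of -9.39 ± 0.74 and -7.83 ± 0.86 points that stayed under 10 points. Gria2 was the receptor gene with the lowest whole-gene level in brain, at 23.3% ± 1.0, against 31.0% ± 1.1 in liver and 24.2% ± 1.0 in heart.

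Gria4, which encodes an AMPA subunit of fast-signalling circuits, was higher in brain over its introns, its coding tiles and the whole gene. Its introns averaged 67.4% in liver (libraries 65.6 to 69.5%), 63.9% in heart (62.6 to 65.7%) and 78.4% in brain (75.4 to 81.3%), and brain did not overlap with the others. The intron differences were 11.04 ± 0.78 points from liver (adjusted p = 3.96e-12) and 14.5 ± 0.9 from heart (adjusted p = 7.38e-13), where 7.99% and 16.8% of all genes were called higher. The whole gene differed by 10.9 ± 0.7 and 14.7 ± 0.9 points, against 5.43% and 12.8% of genes called. The 3 coding tiles averaged 61.4% ± 2.5 in liver, 79.8% ± 6.5 in brain and 52.6% ± 4.0 in heart, differences of 18.3 ± 2.0 and 27.1 ± 2.3 points, against 6.32% and 11% of genes called. Its extreme tile, in intron 4, ran from 25.7 to 55.2% in liver, from 13.3 to 51.6% in heart and from 68.2 to 88.5% in brain, with a difference of 41.2 ± 4.7 points from liver (adjusted p = 4.60e-08). That tile holds a single CpG. With tiles weighted by their CpG number, the whole-gene difference from liver was 6.44 points and the intron difference 7.42, and on tiles of at least 2 CpGs they were 4.70 and 5.93, so that neither was called. After quantile normalisation, the differences from heart were 7.97 points over the whole gene and 7.33 over introns, and neither was called, whereas those from liver stayed calls.

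**Figure D4:**
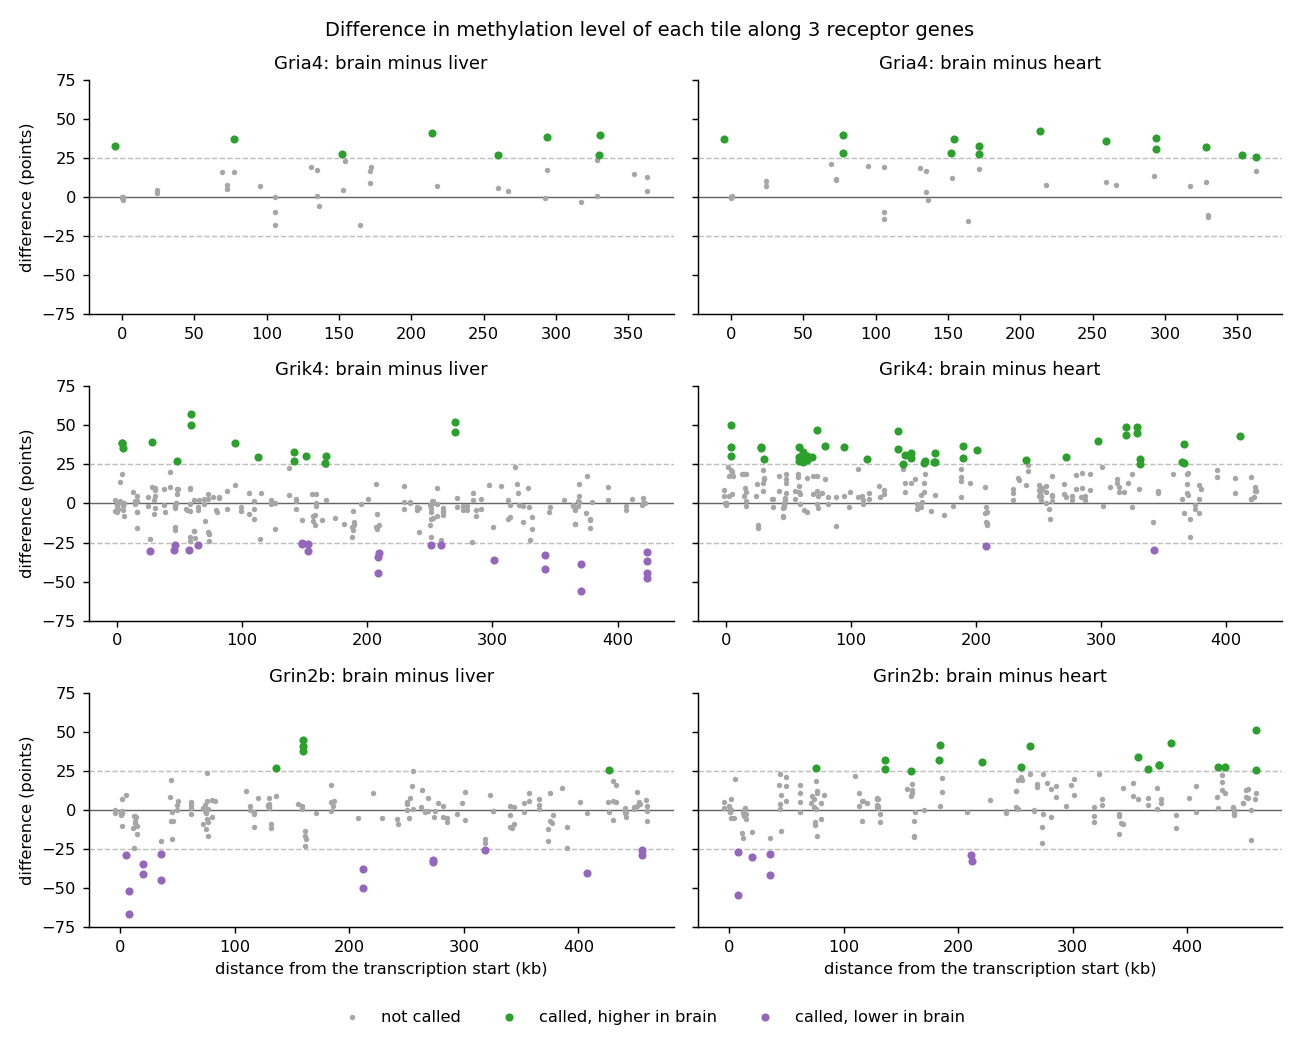
Difference in methylation level (percentage points) of each shared tile of Gria4, Grik4 and Grin2b between brain and liver (left) and brain and heart (right) against distance from the transcription start (kb). Green and purple points were called higher or lower in brain, grey points were not called, and dashed lines mark 25 points. Gria4 had no lower call in either comparison, whereas Grik4 and Grin2b had calls in both directions.

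Grik2 encodes a principal pore-forming kainate subunit. Along its 71 intronic tiles, liver libraries ran from 64.0 to 67.4%, heart libraries from 58.7 to 61.2% and brain libraries from 69.8 to 76.4%, without overlap. Introns were called higher in brain than heart by 14.2 ± 0.8 points (adjusted p = 3.92e-13) and the whole gene by 12.01 ± 0.73 (adjusted p = 4.90e-13). From liver the differences of 8.64 ± 0.73 and 7.44 ± 0.63 points stayed below 10. After quantile normalisation the differences from heart were 7.60 and 5.92 points. The tile with the largest gap, in intron 12 and with a single CpG, averaged 30.5% in liver, 68.9% in brain and 31.6% in heart. One brain library at 38.5% fell within the ranges of liver (15.4 to 44.2%) and heart (17.6 to 42.3%), and the highest stood at 83.9%. The difference of 38.4 ± 5.5 points from liver (adjusted p = 2.20e-06) was 44.5 points without that library. The Grik2 promoter held 6 shared tiles at 3.68% ± 1.46 in liver, 7.06% ± 1.92 in brain and 5.34% ± 1.05 in heart. At its outer end, a tile with 1 CpG at position -996 bp averaged 13.5% in liver, 38.0% in brain and 27.0% in heart, and the other 5 were below 3% in all tissues. Coding tiles stood in brain and liver at 50.7% ± 2.3 and 50.6% ± 2.5 (0.10 ± 1.43 points).

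Grik4 encodes a high-affinity kainate subunit that forms channels with others such as Grik2. It held the most tiles, 253 shared ones, and called tiles of both signs against liver. In intron 1, from 4421 to 4621 bp past the start, a run of 3 adjoining tiles averaged 45.5% in liver, 83.2% in brain and 44.2% in heart. In the tile printed above, liver libraries ran from 31.9 to 52.0%, heart libraries from 22.0 to 41.9% and brain libraries from 73.9 to 84.5%, and brain was apart by 39.0 ± 3.3 points from liver (adjusted p = 1.69e-10) and 50.4 ± 3.8 from heart (adjusted p = 8.57e-11). At the opposite end, 3 CpG-dense tiles that touch the coding part of exon 21, the last exon, averaged 52.5% in liver, 14.99% in brain and 6.22% in heart. In the one with 10 CpGs, liver ran from 46.7 to 66.6%, brain from 5.0 to 22.1% and heart from 2.6 to 6.3%. Liver stood apart there, by -44.8 points for brain (adjusted p = 3.14e-14) and -52.5 for heart (adjusted p = 2.50e-15). In intron 5 a pair of tiles (chr9:42673801-42674000) was low in liver alone, at 15.6% against 64.5% in brain and 55.3% in heart. In intron 3, a pair (chr9:42796101-42796300) was nearly unmethylated in heart alone, at 3.33% against 59.7% in liver and 34.3% in brain.

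Over gene regions, coding tiles of Grik4 were called lower in brain than liver, by -12.03 ± 0.71 points (adjusted p = 1.56e-13), where 10.4% of genes were called lower, and lower in heart than liver by -21.2 ± 0.7 (adjusted p = 2.77e-18), where 16.0% were. The levels were 80.7% ± 1.2 in liver, 68.7% ± 1.5 in brain and 59.5% ± 1.4 in heart, and both stayed called after quantile normalisation, with CpG weights and on tiles of at least 2 CpGs. The 11 coding tiles include the 3 CpG-dense tiles of exon 21, which averaged 52.5%, 14.99% and 6.22%. All of these alternatives keep those 3 tiles, so the calls were not tested without them. The whole gene was called lower in heart than liver by -14.1 ± 0.4 points and its introns by -13.8 ± 0.5, at 59.7% ± 0.3 in heart, 73.5% ± 0.4 in liver and 71.2% ± 1.5 in brain. After quantile normalisation these were -7.03 and -6.55 points. The Grik4 start was unmethylated, with 3 shared promoter tiles at 2.84% ± 0.71 in liver, 0.683% ± 0.261 in brain and 0.639% ± 0.433 in heart. A mean over the brain table's own 4 promoter tiles was 23.7%, because the fourth tile, at -979 bp and measured in brain alone, averaged 92.6%.

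**Figure D5:**
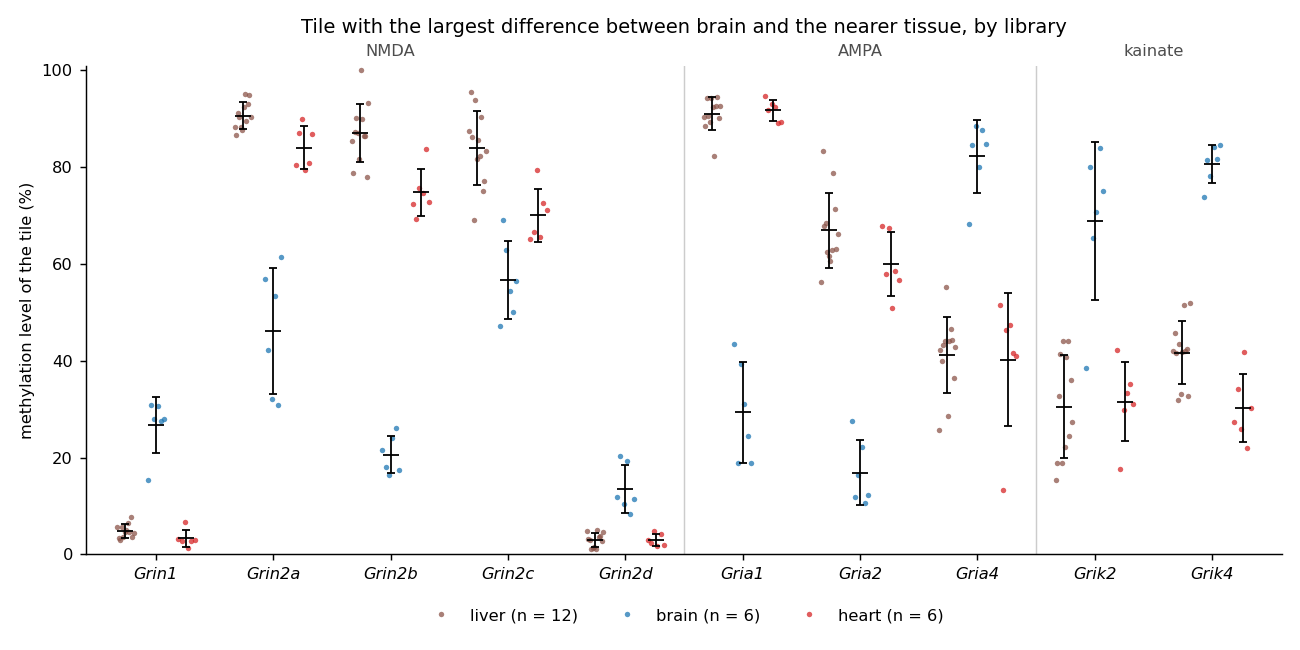
Methylation level (%) in every library (12 liver, 6 brain, 6 heart) of the tile with the largest difference between brain and the nearer other tissue in each gene, with mean and SD in black. These tiles were chosen for this difference. The brain mean was lower in Grin2a, Grin2b, Grin2c, Gria1 and Gria2 and higher in Grin1, Grin2d, Gria4, Grik2 and Grik4. In Grin2c, brain libraries (47.3 to 69.0%) overlapped with heart libraries (65.2 to 79.4%), and in Grik2 1 brain library fell within the ranges of liver and heart.

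Counted over gene regions of at least 3 tiles, with a call at an adjusted p of 0.01 or less and 10 points or more, brain against liver gave 3 calls higher (Gria4 whole gene, introns and coding) and 2 lower (Grik4 coding and Grin2c upstream). Brain against heart gave 9 higher and 0 lower, and heart against liver 0 higher and 6 lower. The shares over all genes, higher and lower, are given in the same order. Between brain and liver they were 5.43% and 4.91% for whole genes, 12.4% and 11.5% upstream, 6.32% and 10.4% for coding and 7.99% and 7.21% for introns. Between brain and heart they were 12.8% and 0.856%, 21.0% and 3.09%, 11% and 3.14%, and 16.8% and 1.42%. Between heart and liver they were 2.65% and 13.6%, 7.15% and 24.6%, 4.11% and 16.0%, and 4.09% and 18.6%. No promoter was called in any comparison, and 6 of the 10 genes had enough promoter tiles. Promoters of all genes were called higher and lower in 4.31% and 4.08% between brain and liver, 5.33% and 1.42% between brain and heart, and 2.33% and 5.72% between heart and liver. The median promoter difference of the 6 was -2.34 points between brain and liver, against -0.42 over 9627 genes. For introns, the median of the 10 genes was -2.78 points between brain and liver, against -0.69 over all genes, and 7.26 points between brain and heart, against 3.59. Of the tiles called between brain and liver, 42 lay in 19 runs of 2 or 3 adjoining tiles called in the same direction (40.8%, against 43.1% of all called tiles), as did 43 of 126 in 20 runs between brain and heart (34.1%, against 35.2%). The share in runs was thus close to the background.

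RefSeq promoter windows around the start (GRCm38.p6) were available for 7 of the 10 genes, those without being Grin2a, Grin2b and Gria1. CCGG, the recognition site of the enzyme MspI, was present in 5 of the 7 windows, with 8 copies in Grik4, 5 in Grin2c, 3 in Grik2, 2 in Gria2 and 1 in Grin1, against 52.8% of all 32851 windows. GGGCGG, counted on both strands, was present in Grin1, Grin2c and Grik4, against 35.7% of all windows. The core of the RE1 element was found in 0 of the 7 and in 0.0365% of all windows.

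The other genes of the glutamate receptor pathway were counted by the same rule on gene regions. Among other ionotropic genes, introns were called higher in brain than heart in Grid1 (by 11.6 points), Grik1 (by 10.4) and Grin3a (by 10.7), where 16.8% of all genes were called higher. The promoters of the other ionotropic genes held 2 calls lower in brain than liver among 5 tested, the kainate genes Grik1 (-20.7 ± 1.6 points) and Grik5 (-15.7 ± 0.7), where 4.08% of all genes were called lower. The Grik5 promoter was also called lower in heart than liver (-14.4 points, beside 5.72% of all genes). Its brain minus heart difference of -1.21 points was not called, so its low level was not particular to brain. Grik1 was called lower in brain than heart as well (-13.9 points, beside 1.42% of all genes). Of the 8 metabotropic genes, whose products signal through G proteins, Grm5 and Grm7 were called higher in brain than heart over the whole gene, by 11.9 ± 0.9 and 13.2 ± 0.7 points, and none lower, where 12.8% of all genes were called higher and 0.856% lower. None of their 3 tested promoters was called. Of the 13 auxiliary subunit genes, Cacng4 (-12.1 ± 0.6 points) and Cnih2 (-10.05 ± 0.70) were called lower in brain than liver over the whole gene, where 4.91% of genes were. Heart also lay below liver, by -11.55 points in Cacng4 (called, beside 13.6% of all genes) and -7.79 in Cnih2 (not called). Brain and heart differed by -0.54 and -2.26 points, neither called, so the low levels were not particular to brain. The 3 coding tiles of Cacng7 were called higher in brain than liver by 39.9 ± 1.9 points and than heart by 36.1 ± 2.1. Of all genes, 6.32% and 11% were called higher over coding tiles. Cacng7 introns went the other way against liver, with a brain minus liver difference of -7.75 points that was not called. Of 10 auxiliary genes tested over coding tiles, 2 were called higher than liver (Cacng3 and Cacng7) and 4 higher than heart (Cacng4, Cacng7, Cnih3 and Neto1). None was called lower in brain there, and none of the 9 promoters tested was called.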

How the data were processed

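Libraries of 12 livers, 6 brains and 6 hearts were made by enhanced RRBS and mapped to mm10 by a commercial service with proprietary methods. The submitters' processing notes name Bismark and methylKit. The authors deposited, per tissue, the methylated fraction of the reads in each 100 bp tile with more than 10 reads in every library. Those fractions are given here as percentages, and the depth behind them is unknown beyond that minimum. Groups are the labelled tissues. No column was unused, and a column gave neither mouse nor gender, so libraries that partly come from the same mice were treated as independent and p-values measure only the spread among libraries.

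Tiles were assigned to RefSeq genes (GRCm38.p6) as upstream, promoter (1000 bp ahead of a start, touching tiles included), coding, other exon or intron. Tissues were compared with limma 3.58.1 (R 4.3.3) in 1 fit over 758685 shared tiles, and over gene means of at least 3 tiles, with Benjamini-Hochberg adjustment over all tiles or all genes of a region. A call needed an adjusted p of 0.01 or less and 25 points for tiles or 10 points for gene regions. Errors given after ± are SEs for differences and SDs for levels. Tables were drawn with Python 3.11.15. In data simulated for brain against liver on 40000 tiles, 95 of 100 planted differences of 30 points passed the adjusted p, and 24 of 100 of 15 points did. All members were named. The promoter tile nearest the start (no shared one in Grin2b and Gria4) and the extreme tile of each were selected by rule. Not all of them are printed. Other tiles were chosen after their values were seen. The members and lists were chosen with earlier results of these data known. Alternatives covered the scale, thresholds, tile sets, weights, promoter width and each library left out. Some results of the pathway lists are not reported here.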

Additional observations from a re-analysis of the deposited data

Results flagged for a closer look

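Of 110 groups of 6 libraries tested (a gene region in brain or heart), 9 held a library far from the other 5 by Dixon's criterion, which chance alone meets in about 1 of 20 groups. The values are means over the tissue's own tiles. In heart, 1 library stood at 8.56% over the other exons of Grin2a (the next at 9.51%), 1 at 73.5% upstream of Grin2b (the next at 79.3%), 1 at 34.2% over the other exons of Gria1 (the next at 30.7%), 1 at 31.6% over all of Gria2 (the next at 32.9%) and 1 at 39.5% over the other exons of Grik2 (the next at 32.0%). In brain, 1 library stood at 66.3% upstream of Grin2c (the next at 74.0%), 1 at 19.9% over the other exons of Gria4 (the next at 23.5%), 1 at 63.6% over all of Grik2 (the next at 67.8%) and 1 at 19.2% at the Grik4 promoter (the next at 23.8%). The Grik4 promoter value includes a tile measured in brain alone. What set these libraries apart was not tested.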

How the results depend on the processing

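No paired analysis was possible because the columns carry no mouse numbers. Called tiles are given as higher and lower in the first-named tissue. At 35 points, brain against liver gave 20 and 25 (2.90% and 2.37% of all tiles), brain against heart 39 and 7 (2.87% and 0.620%), and heart against liver 7 and 41 (1.91% and 3.67%). At 10 points the counts were 114 and 150 (11.4% and 13.2%), 265 and 44 (22.2% and 5.28%), and 15 and 273 (5.33% and 23.5%). Quantile normalisation and the limit of at least 2 CpGs were added after the data were seen. The first gave 42 and 32 for brain against heart and 11 and 41 for heart against liver. The second gave 20 and 52 for brain against liver, 58 and 16 for brain against heart (6.18% and 1.82%) and 6 and 65 for heart against liver (2.79% and 7.39%). Logit levels and tissue weights gave the same counts of member tiles as the levels themselves. With 1 library left out at a time, tiles ranged from 38 to 48 and 54 to 62 for brain against liver, 102 to 116 and 15 to 18 for brain against heart, and 9 to 10 and 89 to 94 for heart against liver.

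Over gene regions, quantile normalisation left 1 higher call for brain against heart and 1 lower for heart against liver. Brain against liver had 1 higher call with CpG weights and 0 on tiles of at least 2 CpGs, where Gria4 coding had too few tiles. With at least 1 tile it had 5 higher and 4 lower, and brain against heart had 1 lower. Without tiles of other genes, brain against liver had 1 lower, because the Grin2c upstream tiles lie in Fdxr. Leaving out 1 library gave 7 to 9 higher for brain against heart, 3 to 3 higher and 2 to 3 lower for brain against liver, and 6 to 6 lower for heart against liver.

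Averaged over the 10 genes, liver stood at 56.1%, brain at 56.3% and heart at 49.2%. On shared tiles it was 54.6%, 54.3% and 47.6%, with brain below liver. As a median over tiles it was 55.0% in brain and 45.9% in heart, and without the upstream stretch 48.7% in heart. No called difference of a whole gene or extreme tile changed sign under any alternative, but uncalled ones did. Of the differences over all gene regions, 28 of 111 changed sign under quantile normalisation, 5 with CpG weights and 3 of 108 on tiles of at least 2 CpGs, none called in either fit. With quantile normalisation, whole-gene heart minus liver became 1.56 points in Grin1, 3.37 in Gria4, 2.12 in Grik2 and 1.70 in Gria1, with adjusted p (limma) of 0.0275, 5.70e-05, 0.000522 and 0.236. Brain minus heart became -1.42 in Grin2b, -6.18 in Gria1 and -1.70 in Grin2c, with adjusted p of 0.307, 0.000538 and 0.0203, and brain minus liver -0.12 in Grin2d (0.831). With 1 library left out and no such normalisation, the Grin2d difference ran from -0.0346 to 1.06. Depth per tile is unknown, so the precision of single levels could not be computed.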

Other observations

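Single-CpG tiles of the receptor genes averaged 68.4% in liver, 72.4% in brain and 58.5% in heart, whereas tiles of 2 to 6 CpGs averaged 69.2%, 65.8% and 59.7% and tiles of 7 or more averaged 15.6%, 15.3% and 12.5%. Over all tiles of the genome, single-CpG tiles averaged 72.4%, 73.7% and 64.8%, and tiles of 2 to 6 CpGs 70.6%, 70.1% and 65.2%. Brain thus lay above liver in single-CpG tiles and below it in tiles of 2 to 6 CpGs in both sets. These differences are descriptions and were not tested.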
